A study of Homo sapiens with 4 samples.

Results

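The genes described here are 59 named genes of DNA replication and S phase, taken by gene symbol, with earlier results of these data known. Of the 59, 58 had a row in the count tables used here, among 14911 genes in all, and MCM3, a subunit of the replicative helicase, had none. The measured cells were HEK293T, a human embryonic kidney line. It expresses the large T antigen of SV40, a viral protein that binds RB and releases the E2F factors that switch on S-phase genes. All cells had been exposed to X-rays (10 Gy), and no unexposed cells were analysed here. One population carried a control shRNA (shCTL) and the other an shRNA against ALKBH5 (shALKBH5, called shA5), the enzyme that removes N6-methyladenosine (m6A) from RNA. The time between exposure and harvest and the shRNA against ALKBH5 that was used are not given for these libraries in the sources used here. From each population poly(A) RNA was fragmented and sequenced before (input) and after (m6A-IP) pull-down with an antibody against m6A, giving 4 libraries with 1 library per group.

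Replication begins when the origin recognition complex, CDC6 and CDT1 load the MCM helicase on DNA in G1, and kinases then fire these origins in S phase. Polymerases copy both strands behind the helicase, on a sliding clamp that a loader complex places on DNA, while other enzymes supply nucleotides, join Okazaki fragments and rebuild chromatin. Many of these genes are transcribed by E2F factors at the G1/S transition, and m6A, found mostly in the sequence context DRACH near stop codons and in long exons, can mark an mRNA for decay or for other fates.

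The control input held 2237819 counts and its m6A-IP 3944402, while the knockdown input held 1311390 and its m6A-IP 3148119, so the shA5 input is the shallowest and sets the precision of most comparisons. Values are given as CPM, which scales the counts of every library to the same total. ALKBH5, the targeted gene, had 217, 363, 111 and 187 CPM in these libraries in the same order, and its log2 ratio of shA5 to shCTL was -0.97 (-1.252 to -0.70) in the inputs and -0.95 (-1.10 to -0.82) in the m6A-IPs. The range in parentheses after a log2 ratio is an exact 95% interval of the ratio without pseudocount, for counting error alone, and with 1 library per group no difference between the populations has a replicate check or a p-value. Of 6 genes known from the HEK293 line, 4 had over 3 counts in every library, and PAX2 and NEFM did not. All 6 of 6 markers of mature kidney had 3 counts or fewer in every library. Summed levels were 0.447 to 5.34 CPM for blood markers, 80.0 to 182 CPM for fibroblast markers and 169 to 378 CPM for gut epithelium markers. The fibroblast sum came mainly from COL1A1 and the gut sum from CDX2, while 5 of 6 gut markers had 3 counts or fewer in every library. The part of other cells in the results was not tested.

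Together the 58 genes took 1.02% and 1.05% of all counts in input and m6A-IP of shCTL, and 1.08% and 1.04% in those of shA5. CHAF1A and MCM2 alone held 32.3% to 45.9% of these counts. The tables list counts per transcript, and the counts of a gene went with how many coding transcripts it has. The 18 members with 1 protein-coding transcript tagged CCDS in Gencode v44 had a median of 768.5 counts in the shCTL input (15 to 4746) and held 86.0% of the members' counts there. The 21 members with 2 such transcripts had a median of 64 counts (2 to 511), and the 19 with 3 or more a median of 51 (2 to 234). Over all genes the medians were 56, 18 and 13 counts for these classes. The rule by which reads shared between transcripts were counted is not given in the sources used here, so a low count of a gene with several transcripts cannot be read as little RNA, and levels are compared between genes only for members with 1 CCDS coding transcript.

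**Figure D1:**
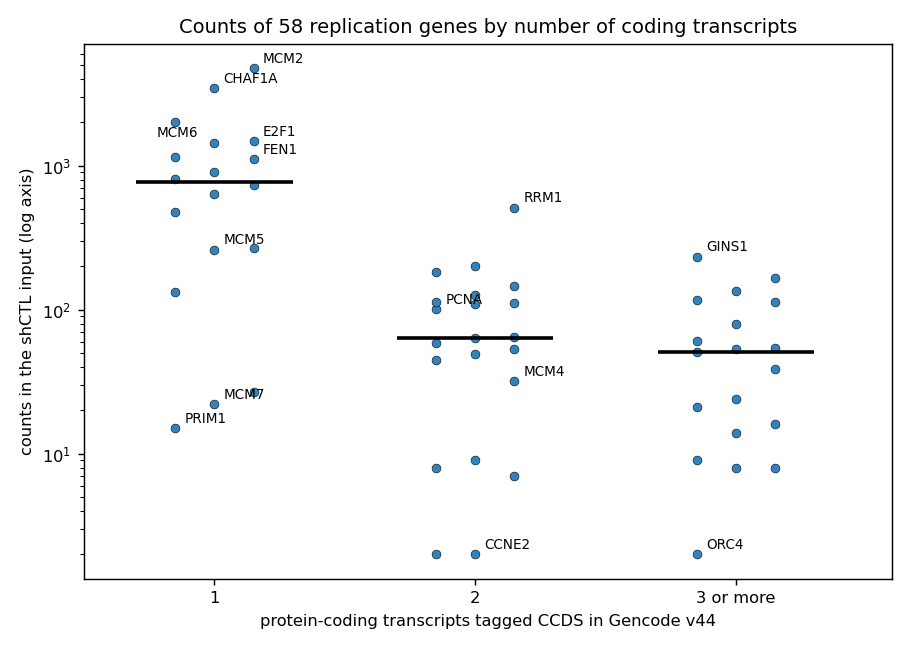
Counts of each of 58 replication genes in the shCTL input (vertical axis, log scale) by the number of its protein-coding transcripts tagged CCDS in Gencode v44 (horizontal axis). Each point is a gene and each bar a median, which falls from 768.5 counts with 1 such transcript to 64 with 2 and 51 with 3 or more.

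A filter of 50 or more counts per library, averaged over all 4, was passed by 38 of the 59 genes and by 5320 of all genes, and ratios are given for these. The 38 passed on their mean over all libraries and do not stand for all 59. Of them, 7 averaged under 50 counts in one fraction or one population and passed through the other: ORC1, POLD2, RRM2 and TK1 in the inputs, RFC4 in shA5, and UHRF1 and CCNE1 in both the inputs and shA5. Calls of these genes in that direction are partly set by the filter and are given as a description. Among the members that passed the filter, with 1 CCDS coding transcript and a counted transcript in Gencode v44, levels per kilobase of that transcript in the shCTL input spanned from DBF4, which activates the kinase CDC7, at 16.1 (13.5 to 19.1) CPM per kb, to MCM2, a helicase subunit, at 618 (600.1 to 635). Next to MCM2 stood CHAF1A, the large subunit of the chromatin assembly factor CAF-1, at 459 (444 to 475) CPM per kb and CDT1, the MCM loader, at 337 (323 to 352). The transcription factor E2F1 at 246 (233 to 258) CPM per kb and the flap nuclease FEN1 at 245 (231 to 259.8) did not differ beyond counting error. Below these came MCM6 at 172 CPM per kb, then POLA2 at 113 and RPA1 at 105, whose counting intervals overlap, then GINS2 at 80.6, CHAF1B at 64.1 and E2F2 at 63.1, the last pair again with overlapping intervals. The lowest above DBF4 were POLE at 45.9 CPM per kb, then MCM5 at 33.7 (29.8 to 38.1) and ORC2 at 28.0 (24.8 to 31.6), whose counting intervals overlap. Thus 3 helicase subunits of one hexamer, MCM2, MCM6 and MCM5, differed in listed input level per kb by more than their counting error.

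**Figure D2:**
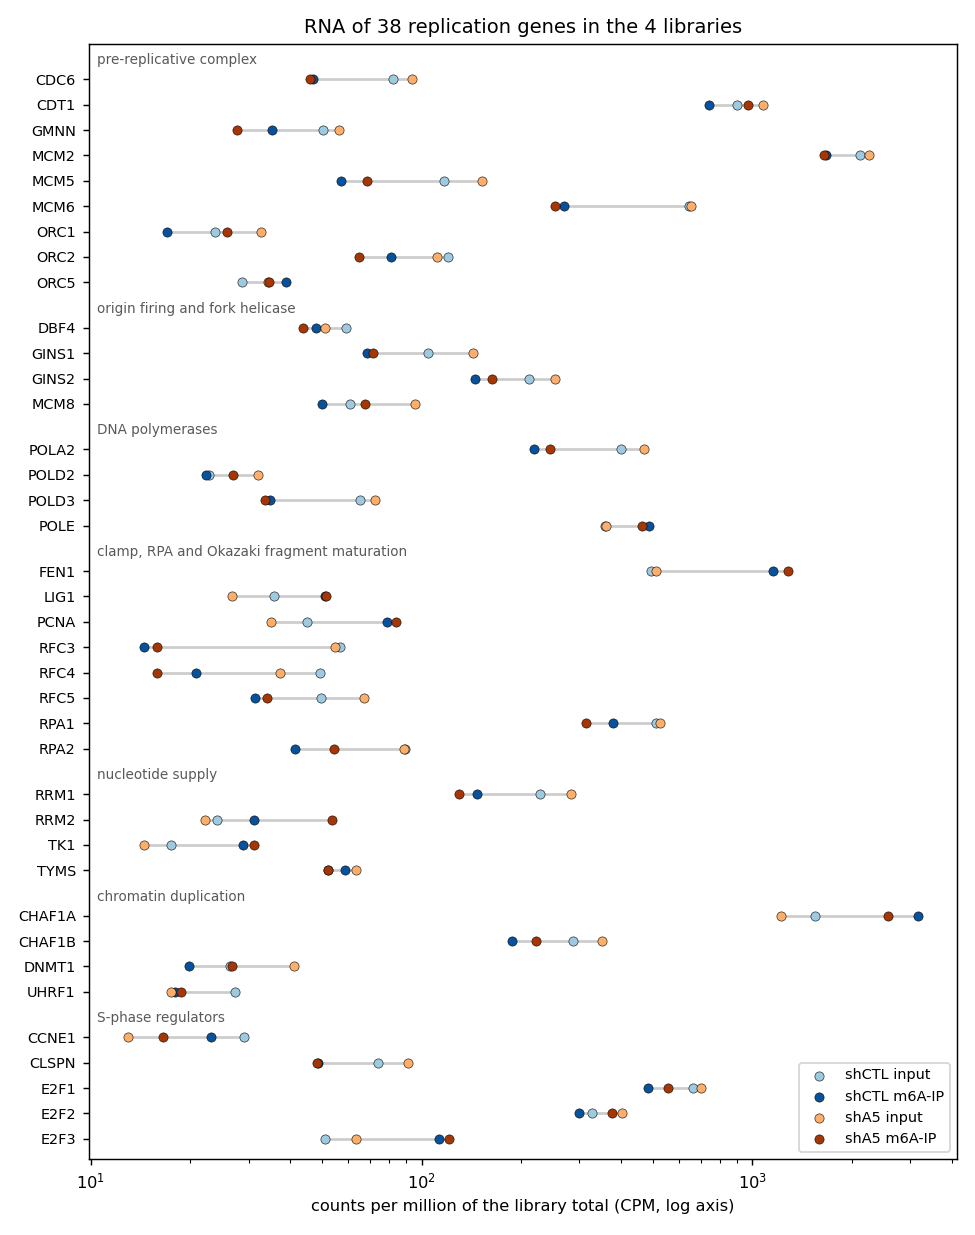
CPM (horizontal log axis) of the 38 replication genes that passed the filter, in input and m6A-IP of shCTL and of shA5, grouped by role. Each point is 1 library, and the m6A-IP points lie to the right of both input points for 9 genes (FEN1, CHAF1A, E2F3, PCNA, LIG1, RRM2, TK1, POLE and ORC5) and to the left of both for 20.

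The first comparison asks how strongly each mRNA was recovered with the m6A antibody. Enrichment is the log2 of m6A-IP over input, after 0.5 was added to each CPM value as a pseudocount. Since CPM sums to the same total in every library, an enrichment below 0 means recovery below the library average and not absence of m6A. Below 0 lay 28 of 38 members in shCTL and 27 of 38 in shA5, against 2900 and 2855 of all 5320 genes. The median was -0.44 in shCTL against -0.11 over all genes, and -0.47 in shA5 against -0.10. At least 1.5-fold enrichment was found in shCTL for 5 of 38 members (PCNA, FEN1, TK1, CHAF1A and E2F3), against 22.5% of all genes, where TK1 passed the filter through its m6A-IP counts, and a ratio at least 1.5-fold below 1 for 14 of 38, against 30.3% of all genes. In shA5 the counts were 7 of 38 upward (PCNA, FEN1, LIG1, RRM2, TK1, CHAF1A and E2F3), against 24.3% of all genes, where RRM2 and TK1 passed in that way, and 18 of 38 downward, against 31.7%. The 15 members with 1 CCDS coding transcript had a median of -0.43 in shCTL, against -0.06 over the 3051 genes of that class. In the counting intervals, 8 members lay wholly above 0 and 21 wholly below in shCTL (21.1% and 55.3%, against 33.7% and 42.3% of all genes). In shA5 they were 8 and 22 (21.1% and 57.9%, against 32.6% and 39.1%).

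**Figure D3:**
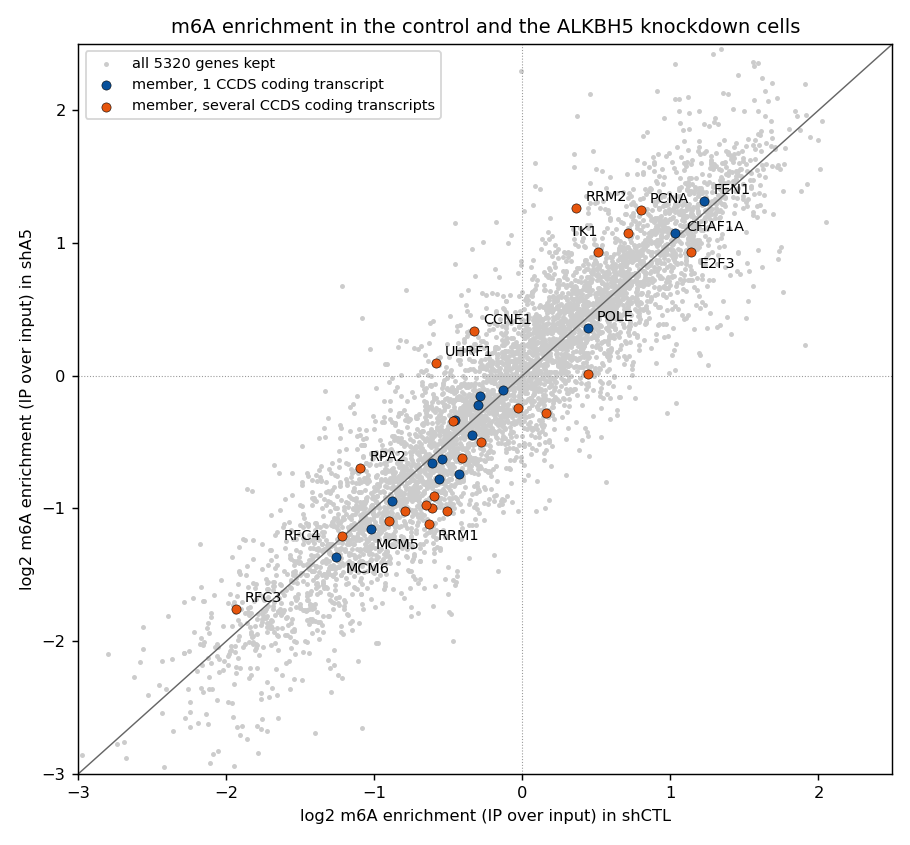
log2 m6A enrichment (m6A-IP over input CPM) in shA5 (vertical axis) against shCTL (horizontal axis). Grey points are the 5320 genes that passed the filter, of which 15 lie outside the axes. Coloured points are the 38 replication genes, which lie along the diagonal from RFC3 at -1.94 and -1.76 to FEN1 at 1.23 and 1.32, with RRM2 above it.

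In the values below, 4 CPM values or counts in a row stand for input and then m6A-IP of shCTL, followed by input and then m6A-IP of shA5. Among the pre-replicative complex genes 8 of 9 lay below 0 in shCTL, against 2900 of all 5320 genes. None of them reached 1.5-fold enrichment, against 22.5% of all genes. MCM6 had 645, 269, 654 and 253 CPM and enrichments of -1.26 (-1.38 to -1.14) in shCTL and -1.37 (-1.51 to -1.23) in shA5. MCM5, another helicase subunit, had 117, 57.0, 153 and 68.3 CPM with -1.03 (-1.30 to -0.77) and -1.15 (-1.44 to -0.87). MCM2, with 2121, 1672, 2256 and 1652 CPM, lay closer to 0, at -0.34 and -0.45 in shCTL and shA5. Both inputs stood above both m6A-IPs for each of these 3 helicase genes. CDC6, the loader ATPase, had 81.8, 46.9, 93.8 and 46.1 CPM and -0.80 and -1.02. CDT1 had 899, 738, 1078 and 969 CPM and -0.28 and -0.15, and its inhibitor GMNN, geminin, had 50.5, 35.2, 56.4 and 27.6 CPM and -0.51 and -1.02. Of the origin recognition complex subunits, ORC1 had 23.7, 17.0, 32.8 and 25.7 CPM and -0.47 and -0.34, and ORC2 had 120.2, 81.1, 111 and 64.8 CPM and -0.56 and -0.78. ORC5 was the member of this group above 0 in shCTL, with 28.6, 39.0, 34.3 and 34.6 CPM and 0.44 (0.02 to 0.89), but not beyond counting error in shA5, at 0.01 (-0.50 to 0.55).

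The 4 kept genes listed under origin firing and the fork helicase, MCM8 among them, were all below 0 in both populations. Of all 5320 genes 2900 lay below 0 in shCTL and 2855 in shA5. GINS1 and GINS2 encode subunits of the GINS complex, which joins CDC45 and MCM in the active helicase. GINS1 had 105, 68.2, 143 and 71.2 CPM with enrichments of -0.61 and -0.998, and GINS2 had 212, 146, 252 and 164 CPM with -0.54 and -0.62. DBF4, the activating subunit of the CDC7 kinase that fires origins, had 58.99, 47.9, 51.1 and 43.8 CPM and -0.30 and -0.22. MCM8, listed with this group, is a helicase of the MCM family that acts in recombination and not in origin firing or the loaded hexamer, and had 60.8, 49.9, 95.3 and 67.3 CPM and -0.28 and -0.50. Among the polymerase genes, POLE, the catalytic subunit of the leading strand polymerase, differed in sign from the others. It had 359, 487, 361 and 462 CPM and enrichments of 0.44 (0.32 to 0.56) and 0.36 (0.21 to 0.51). POLA2, the B subunit of polymerase alpha and primase, had 401, 218, 470.5 and 244 CPM and -0.88 and -0.94, and POLD3, an accessory subunit of the lagging strand polymerase delta, had 65.2, 34.7, 72.4 and 33.7 CPM and -0.90 and -1.09. POLD2, also of polymerase delta, had 22.8, 22.3, 32.0 and 27.0 CPM and lay within counting error of 0, at -0.03 (-0.54 to 0.50) and -0.24 (-0.80 to 0.32).

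The genes of the clamp, its loader, RPA and Okazaki fragment maturation spanned the full range of the 38 genes. FEN1, which cuts the flaps of Okazaki fragments, had the highest shCTL enrichment of the 38, with 1105, 4565, 672 and 4025 counts, 494, 1157, 512 and 1278 CPM, and 1.23 (1.13 to 1.32) in shCTL and 1.32 (1.201 to 1.44) in shA5. Its exons overlap those of FADS2 on the same strand. PCNA, the clamp, had 101, 311, 46 and 264 counts, 45.1, 78.8, 35.1 and 83.9 CPM, and enrichments of 0.80 (0.48 to 1.14) and 1.246 (0.80 to 1.74), with 3 named pseudogenes in the annotation. LIG1, which seals nicks between fragments, had 35.7, 51.2, 26.7 and 51.5 CPM and 0.51 and 0.93, and 0.89 in shCTL from its most counted transcript alone. For these 3 genes both m6A-IPs stood above both inputs. The clamp loader genes lay below 0. RFC3 was the lowest of the 38, with 127, 57, 72 and 50 counts, 56.8, 14.5, 54.9 and 15.9 CPM, and enrichments of -1.94 (-2.45 to -1.51) and -1.76 (-2.34 to -1.249). RFC4 had 49.2, 20.8, 37.4 and 15.9 CPM and -1.22 (-1.67 to -0.82) and -1.21 (-1.83 to -0.64), and its exons overlap EIF4A2 on the opposite strand. RFC5 had 49.6, 31.4, 67.1 and 34.0 CPM and -0.65 and -0.97. RPA, which coats single-stranded DNA, was represented by RPA1 with 511, 380.0, 527 and 314 CPM and -0.43 and -0.74, and by RPA2 with 89.4, 41.6, 88.5 and 54.3 CPM and -1.09 (-1.41 to -0.80) and -0.70 (-1.05 to -0.35). From its most counted transcript alone RPA2 stood at -1.495 in shCTL.

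In nucleotide supply, the subunits of ribonucleotide reductase, which makes deoxyribonucleotides, lay on opposite sides of 0. RRM2 was beyond counting error in shA5 but not in shCTL, and it passed the filter through its m6A-IP counts. RRM1, the large subunit, had 228, 147, 282 and 129.9 CPM and enrichments of -0.63 (-0.81 to -0.46) and -1.12 (-1.33 to -0.91). RRM2, the small subunit, had 24.1, 31.2, 22.1 and 53.7 CPM and 0.36 (-0.10 to 0.86) and 1.26 (0.70 to 1.901), and 3 named pseudogenes. From its most counted transcript alone RRM2 stood at 0.59 in shCTL, past 1.5-fold. TK1, which salvages thymidine, had 17.4, 28.9, 14.5 and 31.1 CPM and 0.71 (0.19 to 1.29) and 1.08 (0.38 to 1.895), from 39 and 19 input counts. TYMS, thymidylate synthase, had 52.3, 58.6, 63.3 and 52.1 CPM and 0.16 and -0.28, both within counting error of 0, and its exons overlap ENOSF1 and TYMSOS on the opposite strand. In chromatin duplication, the subunits of CAF-1, which places histones on new DNA, were also on opposite sides. CHAF1A had 3460, 12492, 1599 and 8096 counts, 1546, 3167, 1219 and 2572 CPM and enrichments of 1.03 (0.98 to 1.09) and 1.08 (0.999 to 1.15), and an annotated lncRNA overlaps its exons on the opposite strand. CHAF1B had 286, 188, 351 and 222 CPM and -0.61 (-0.77 to -0.46) and -0.66 (-0.83 to -0.49), and its exons overlap those of MORC3 on the same strand. DNMT1, the maintenance DNA methyltransferase, had 26.4, 19.8, 41.2 and 26.7 CPM and -0.41 and -0.62. From its most counted transcript alone DNMT1 stood at 0.41 in shCTL, the opposite sign. UHRF1, which brings DNMT1 to hemimethylated DNA, had 27.3, 18.0, 17.5 and 18.7 CPM and -0.59 and 0.09.

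Among the regulators of S phase entry, E2F3 had 114, 445, 83 and 382 counts, 50.9, 113, 63.3 and 121 CPM, and enrichments of 1.14 (0.85 to 1.46) and 0.93 (0.59 to 1.30). The other activating E2F factors did not share this. E2F1 had 660.5, 482, 701 and 556 CPM and -0.45 (-0.55 to -0.35) and -0.33 (-0.45 to -0.22), and E2F2 had 328, 299, 404 and 376 CPM and -0.13 and -0.10. The counting intervals of E2F3 lay above those of E2F1 in both populations. CCNE1, cyclin E1, had 29.0, 23.1, 13.0 and 16.5 CPM and -0.33 and 0.34, and CLSPN, claspin, which carries the checkpoint signal from stalled forks to CHEK1, had 73.7, 48.7, 90.7 and 48.3 CPM and -0.59 and -0.90.

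The motif GGACT, a frequent form of DRACH with the methylated A at position 3, was read from the transcript strand of the listed transcript with the most counts. It was present in 34 of 37 members with a transcript in Gencode v44 (91.9%) and in 93.3% of 5292 genes, so its presence did not set the members apart. The windows below show sites of the most and least enriched of the 38, with GGACT in capitals and coordinates in hg38, all 5' to 3' on the transcript strand. FEN1, at chr11:61792911-61797238 on the plus strand, held 1 site, in the coding sequence 601 nt before the end of the stop codon. CHAF1A, at chr19:4402640-4445018 on the plus strand, held 3 coding sites. E2F3, at chr6:20401879-20493714 on the plus strand, held 1 coding site 100 nt before the end of the stop codon and 2 in the 3' UTR, all in exon 7, and the coding site and the nearer UTR site are shown. MCM6, at chr2:135839626-135876443 on the minus strand, held 5 coding sites, of which the site nearest to the stop codon is shown, 691 nt before its end in exon 13. RFC3, at chr13:33818069-33966558 on the plus strand, held 1 coding site, in exon 1.
FEN1 at chr11:61795901-61795905: ccgaggacatGGACTgcctcacctt
CHAF1A exon 3 at chr19:4409162-4409166: atttgacagaGGACTcgaatgagca
CHAF1A exon 10 at chr19:4429716-4429720: cgaagctcctGGACTatgaggtgga
CHAF1A exon 13 at chr19:4433156-4433160: ctgccgccggGGACTgctcagcaac
E2F3 coding at chr6:20490328-20490332: tgctgcaagaGGACTatctcctgag
E2F3 3' UTR at chr6:20492008-20492012: tggatgctaaGGACTgcgggaatga
MCM6 exon 13 at chr2:135851542-135851546: aagagtcagaGGACTtcattgtgga
RFC3 exon 1 at chr13:33818226-33818230: tgggacggctGGACTatcacaagga

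MCM6, with 5 sites, was among the least enriched of the 38 and FEN1, with 1, was the most enriched, so the number of GGACT sites did not order these genes. Across the 37 members, Spearman's rho of shCTL enrichment with GGACT sites per kb was -0.04 (0.17 over 5292 genes), with the shorter motif GGAC per kb 0.30 (0.32) and with GC content of the transcript 0.36 (0.36). For the longest exon it was -0.11 (0.06). These are correlations across genes that share their libraries and differ in base composition, given as a description. The median GC content of the members' transcripts was 48.6% and their median length 3142 nt, against 51.4% and 3590 nt over all genes, and the part of base composition in the members' lower median enrichment was not tested.

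Transcripts of the same gene are given next. Of 11 members with at least 2 transcripts that averaged 10 counts or more, 3 had enrichment intervals that did not overlap in shCTL (CLSPN, DNMT1 and RPA2) and 3 in shA5 (CLSPN, GMNN and RFC3), and CLSPN alone did so in both. Over all 1274 genes of this kind 31.9% had such intervals in shCTL, 24.7% in shA5 and 16.4% in both, so the members' counts were close to the background and the pairs are described for themselves. The values of this paragraph carry no pseudocount. CLSPN transcript ENST00000251195 had 25, 75, 9 and 52 counts and enrichments of 0.77 (0.10 to 1.48) and 1.27 (0.23 to 2.47). CLSPN transcript ENST00000318121 had 139, 115, 110 and 100 counts and enrichments of -1.09 (-1.46 to -0.72) and -1.40 (-1.81 to -0.997). They end in different last exons, so most of what tells them apart in sequence lies there. That of ENST00000251195, 763 nt long at chr1:35720218-35720980 on the minus strand, holds 1 GGACT, in the coding sequence 73 nt before the end of the stop codon. The last exon of ENST00000318121, 4495 nt long at chr1:35732112-35736606, holds 4, all in the 3' UTR. The part of these motifs in the difference was not tested.

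RFC3, the least enriched of the 38, differed in the same way in shA5. Its MANE transcript ENST00000380071 had 105, 38, 65 and 32 counts and -2.28 (-2.86 to -1.74) and -2.29 (-2.94 to -1.65), while ENST00000434425, with another last exon, had 22, 19, 7 and 18 counts and -1.03 (-1.995 to -0.08) and 0.10 (-1.23 to 1.60). RPA2 transcripts ENST00000313433 and ENST00000373912 had enrichments of -0.56 (-1.05 to -0.06) and -1.52 (-1.94 to -1.11) in shCTL. For DNMT1, ENST00000340748 had 24, 57, 29 and 48 counts and 0.43 (-0.28 to 1.18) in shCTL, against 35, 21, 25 and 36 counts and -1.55 (-2.41 to -0.73) for ENST00000359526. These DNMT1 transcripts share their last exon, and 182 of 5408 nt and 48 of 5274 nt in them are unshared. GMNN transcript ENST00000230056 had 96, 122, 65 and 57 counts and -1.45 (-1.99 to -0.92) in shA5. GMNN transcript ENST00000356509 had 14, 17, 8 and 30 counts and 0.64 (-0.52 to 1.98) there. Between these GMNN transcripts 136 of 1263 nt and 6 of 1133 nt are unshared. How reads were divided between transcripts is not given in the sources used here, and its part in these differences was not tested.

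**Figure D4:**
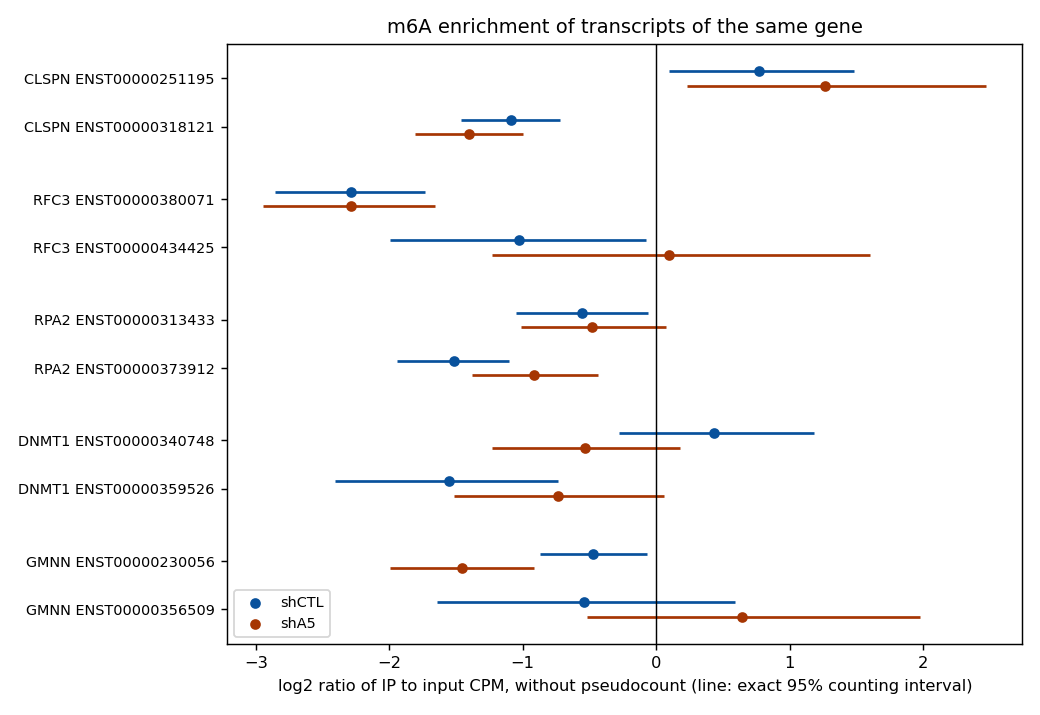
log2 ratio of m6A-IP to input CPM without pseudocount (horizontal axis) for pairs of transcripts of CLSPN, RFC3, RPA2, DNMT1 and GMNN in shCTL (blue) and shA5 (brown). Points are single libraries' ratios and lines exact 95% counting intervals. The CLSPN pair lies on opposite sides of 0 in both populations, at 0.77 and 1.27 against -1.09 and -1.40.

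The second comparison asks how the RNA levels of these genes differed between ALKBH5 knockdown and control cells, both after X-rays, from the inputs. Most members were slightly higher in shA5: 26 of 38 had a log2 ratio of shA5 to shCTL above 0 (68.4%, against 47.5% of all genes), with a median of 0.15 against -0.02. With 1 library per group, a difference between cultures or libraries cannot be told apart from one due to the knockdown. In bulk RNA, more cells in S phase and more RNA per cell cannot be told apart either. The 30 other replication genes given below had a median of -0.05, with 13 of 30 above 0. The differences were small. At least 1.5-fold higher input was found for 2 of 38, MCM8 and DNMT1, against 3.44% of all genes, and at least 1.5-fold lower input for 2 of 38, UHRF1 and CCNE1, against 6.43%. Each count is 5.26% of the 38, close to its background. UHRF1 and CCNE1 averaged under 50 counts in shA5 and passed the filter through shCTL, so nothing is read from the count of lower inputs. Counting intervals lay wholly above 0 for 12 of 38 members (31.6%), against 12.9% of all genes, and wholly below 0 for 2 of 38 (5.26%), against 15.6%. Of the 15 members with 1 CCDS coding transcript, 12 lay above 0, within a range of -0.34 to 0.39 and with a median of 0.09, against 46.1% above 0 and a median of -0.03 over all 3051 genes of that class. With edgeR TMM factors 25 of 38 were above 0, and with DESeq2 size factors 26.

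**Figure D5:**
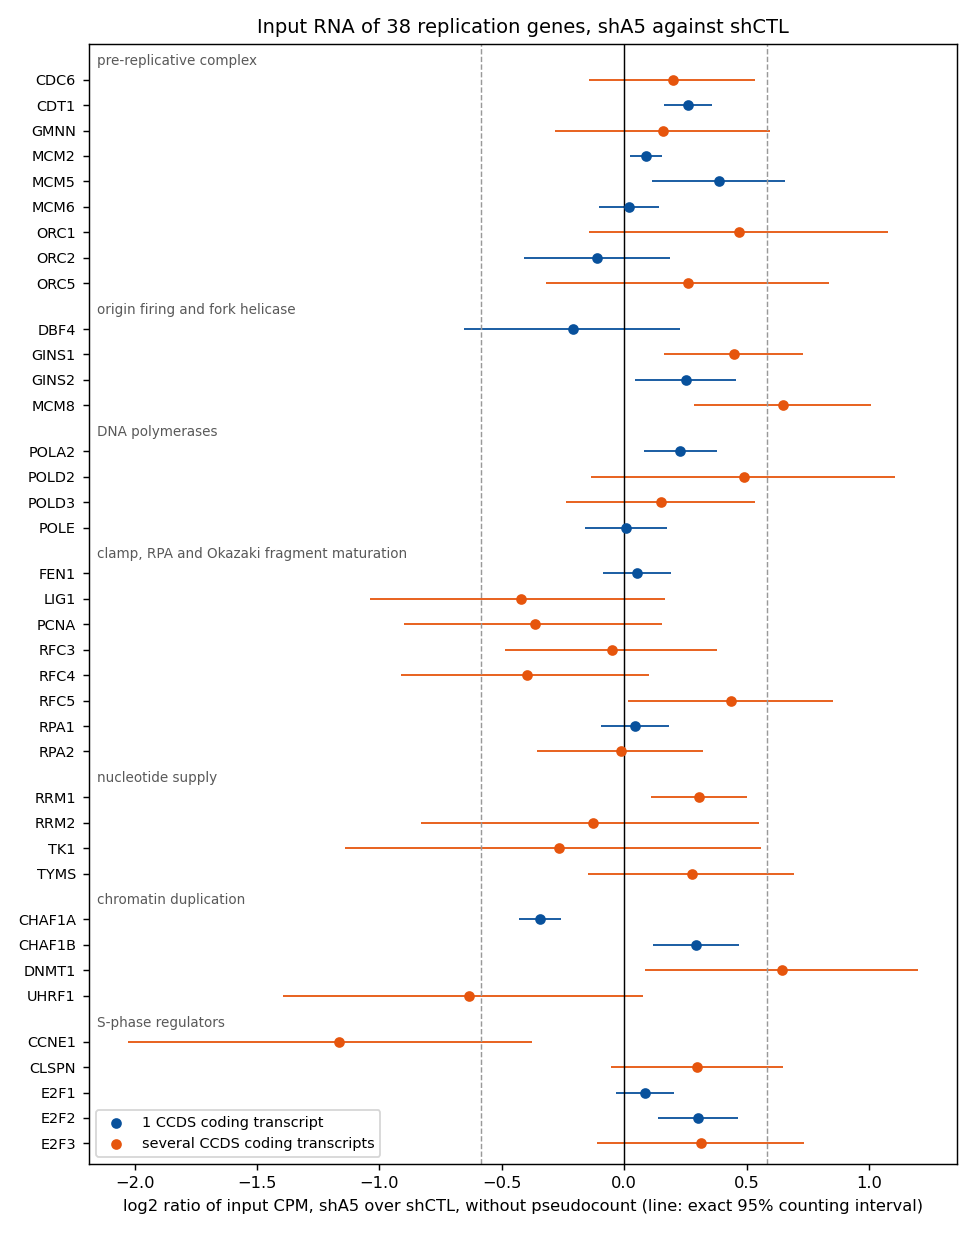
log2 ratio of input CPM, shA5 over shCTL, without pseudocount (horizontal axis) for the 38 replication genes by role. Points are the ratio of 1 library to 1 library, lines the exact 95% counting intervals, and dashed lines 1.5-fold. Most points lie a little to the right of 0, CCNE1 lies farthest left, and CHAF1A has a narrow interval left of 0.

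Of the pre-replicative complex genes 8 of 9 were higher in the shA5 input, against 47.5% of all genes. None was higher by 1.5-fold, against 3.44% of all genes. In the m6A-IPs 3 of 9 were higher in shA5, against 47.65% of all genes. MCM5 had a ratio of 0.39 (0.11 to 0.66), CDT1 of 0.26 (0.16 to 0.36) and MCM2 of 0.09 (0.02 to 0.16), all above 0 beyond counting error. ORC1 had a larger value with a wide interval, 0.46 (-0.15 to 1.08), from 53 and 43 counts. MCM6 was at 0.02 (-0.10 to 0.14) and ORC2, the 1 gene of this group below 0, at -0.11 (-0.41 to 0.19). CDC6, GMNN and ORC5 were at 0.20, 0.16 and 0.26, with intervals that include 0. The recombination helicase MCM8 had the highest ratio of the 38, 0.65 (0.29 to 1.01), from 136 and 125 counts. Its exons overlap those of another annotated protein-coding gene on the same strand. Of the genes of origin firing and the fork, both GINS subunits were higher beyond counting error, GINS1 at 0.45 (0.16 to 0.73) and GINS2 at 0.25 (0.05 to 0.46). DBF4 was at -0.21 (-0.65 to 0.23). All 4 polymerase genes were above 0, against 47.5% of all genes. POLA2 was at 0.23 (0.08 to 0.38) and POLD2 at 0.48 (-0.13 to 1.11). The exons of POLA2 overlap those of another annotated protein-coding gene on the same strand. POLE differed by 0.01 (-0.16 to 0.17), close to equal, and POLD3 was at 0.15 (-0.24 to 0.53).

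Of the clamp, RPA and Okazaki fragment genes 3 of 8 were above 0, against 47.5% of all genes. Their median was -0.03, and their difference from the other roles was not tested. LIG1 was at -0.41 (-1.04 to 0.17), RFC4 at -0.39 (-0.91 to 0.10) and PCNA at -0.36 (-0.90 to 0.15), each with an interval that includes 0. From its most counted transcript alone LIG1 was at -0.79, past 1.5-fold. RFC5, another loader subunit, was higher, at 0.43 (0.02 to 0.85). FEN1 and RPA1, which carry many counts, were at 0.05 (-0.09 to 0.19) and 0.04 (-0.09 to 0.18), and the less counted RFC3 and RPA2 at -0.05 and -0.01. In nucleotide supply, RRM1 was higher at 0.30 (0.11 to 0.50) and RRM2 was at -0.12 (-0.83 to 0.55). TYMS and TK1 were at 0.27 and -0.26, with intervals that include 0. The CAF-1 subunits went opposite ways beyond counting error: CHAF1A was lower in shA5 at -0.34 (-0.43 to -0.26) and CHAF1B higher at 0.29 (0.12 to 0.47). Exons of CHAF1B overlap MORC3 on the same strand, and the part of such reads was not tested. The m6A-IP libraries gave the same order, at -0.30 (-0.34 to -0.26) for CHAF1A and 0.24 (0.09 to 0.39) for CHAF1B. Input and m6A-IP come from the same population of cells, so here and below their agreement is not a second observation. DNMT1 was higher at 0.63 (0.08 to 1.201), and at 1.01 from its most counted transcript alone. Its partner UHRF1 was at -0.62 (-1.40 to 0.08), from 61 and 23 counts, and at -0.55, short of 1.5-fold, from its most counted transcript alone.

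CCNE1, which passed the filter through its shCTL counts, showed the largest difference of the 38, with 65, 91, 17 and 52 counts and an input ratio of -1.13 (-2.03 to -0.38). Its ratio in the m6A-IPs was -0.47 (-1.002 to 0.03), in the same direction but within counting error of 0. Among the E2F factors, E2F2 was higher in shA5 at 0.30 (0.14 to 0.46) in the inputs and 0.33 (0.21 to 0.45) in the m6A-IPs. E2F1 was at 0.09 (-0.03 to 0.21) in the inputs and E2F3 at 0.31 (-0.11 to 0.73). CLSPN was at 0.30 (-0.05 to 0.65).

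In the m6A-IP libraries the median ratio of shA5 to shCTL was 0.07 against -0.02 over all genes, and 22 of 38 members lay above 0 (57.9%, against 47.65% of all genes). Of the pre-replicative complex genes 3 of 9 were above 0, with a median of -0.03, and of the clamp, RPA and Okazaki fragment genes 6 of 8, with a median of 0.10, and these differences were not tested. The 15 members with 1 CCDS coding transcript had a median of 0.14 in the m6A-IPs, against -0.03 over all genes of that class. At least 1.5-fold higher were 2 of 38, ORC1 at 0.58 (0.11 to 1.09) and RRM2 at 0.77 (0.44 to 1.13), against 2.58% of all genes, and at least 1.5-fold lower were 0 of 38, against 4.89%. CDT1 was higher in both fractions, at 0.39 (0.32 to 0.47) in the m6A-IPs, beside its input value above. RPA1 was lower in the m6A-IPs, at -0.27 (-0.39 to -0.16), where its inputs were within counting error of each other.

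The third comparison asks whether the m6A enrichment of these mRNAs differed when ALKBH5 was knocked down. The median change, shA5 minus shCTL, was -0.08 for the members and 0.00 for all genes. At least 1.5-fold higher enrichment was found for 3 of 38, RRM2, UHRF1 and CCNE1, against 5.38% of all genes, and at least 1.5-fold lower for 0 of 38, against 5.09%. All 3 passed the filter through their m6A-IP counts, averaged under 50 in the inputs, have several CCDS coding transcripts and had few input counts, between 17 and 29 in the shA5 input. The change of RRM2 was 0.90 (0.14 to 1.70), where its m6A-IP level stood higher in shA5 and its input levels were within counting error of each other. That of UHRF1 was 0.68 (-0.21 to 1.62) and that of CCNE1 0.66 (-0.28 to 1.69), each with an interval that includes 0, and for both genes the shA5 input stood below the shCTL input. From its most counted transcript alone UHRF1 stood at 0.32, short of 1.5-fold. PCNA at 0.45 (-0.12 to 1.04) and LIG1 at 0.42 (-0.25 to 1.12) completed the 5 largest values upward, also with intervals that include 0. From the most counted transcript alone LIG1 stood at 0.83, past 1.5-fold, and RPA2 at 0.59, where all its transcripts together gave 0.40.

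The 5 largest values downward were GMNN at -0.50 (-1.11 to 0.09), RRM1 at -0.48 (-0.76 to -0.21), TYMS at -0.44 (-0.96 to 0.08), ORC5 at -0.43 (-1.12 to 0.26) and GINS1 at -0.38 (-0.78 to 0.00). From its most counted transcript alone GMNN stood at -0.96, past 1.5-fold. Of these 5, RRM1 lay below 0 clear of counting error. The change of RRM2, the other subunit of ribonucleotide reductase, was upward. Because RRM2 passed the filter through its m6A-IP counts, nothing is read from the opposite signs. The 15 members with 1 CCDS coding transcript spanned -0.32 to 0.13, from RPA1 at -0.32 (-0.50 to -0.14) to CDT1 at 0.13 (0.01 to 0.26). The mRNAs with the highest enrichment in shCTL among them, FEN1 and CHAF1A, had changes of 0.09 (-0.06 to 0.24) and 0.04 (-0.05 to 0.14). For CHAF1A, which had the most counts, the whole interval lies within 1.5-fold of no change, and the spread between cultures was not measured.

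Of 55 other replication genes that are not members, chosen for their function in replication and with earlier results known, 30 passed the filter. Their input ratios ranged from -0.40 to 0.44 with a median of -0.05, with 13 of 30 above 0 (43.3%, against 47.5% of all genes) and 0 of 30 past 1.5-fold in either direction, against 3.44% of all genes higher and 6.43% lower. Of 45 mitotic genes 20 were kept, with a median of -0.06, 8 of 20 above 0, 1 at least 1.5-fold higher and 0 at least 1.5-fold lower. Their shCTL enrichment was nearer that of the members, with medians of -0.38 for the other replication genes and -0.38 for the mitotic genes. No test compares these lists.

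The remaining 20 members averaged under 50 counts, and their counts are given in the order used above. In the pre-replicative complex MCM4 had 32, 29, 15 and 12 counts, MCM7 22, 67, 14 and 43, ORC3 9, 6, 5 and 1, ORC4 2, 14, 6 and 9 and ORC6 27, 9, 15 and 7. The single transcript listed for MCM7 is not in Gencode v44. Among the genes of origin firing, MCM10 had 8, 10, 12 and 17 counts, CDC45 8, 5, 6 and 3, GINS3 14, 39, 7 and 31, GINS4 49, 42, 30 and 50 and CDC7 45, 17, 14 and 16. The polymerase genes of this kind were POLA1 with 7, 19, 11 and 17 counts, the catalytic primase subunit PRIM1 with 15, 11, 28 and 12, PRIM2 with 21, 6, 7 and 6, POLD1 with 16, 24, 10 and 26 and POLE2 with 8, 2, 5 and 1. Low counts were also listed for the loader subunits RFC1 (9, 32, 6 and 27) and RFC2 (24, 29, 22 and 26), for DUT, which hydrolyses dUTP (53, 73, 25 and 43), for RPA3 (2, 11, 0 and 2) and for CCNE2, cyclin E2 (2, 1, 0 and 2). A count of 0 in the shA5 input, as for RPA3 and CCNE2, allows up to 3 counts, or 2.29 CPM. Of these 20 genes 17 have several CCDS coding transcripts, while MCM2 and GINS2, whose products belong to the same complexes, had far more counts. At this depth and with this counting the levels of the 20 genes were not ranked.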

How the data were processed

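Counts per Ensembl transcript were deposited by the authors for 1 input and 1 m6A-IP library each of X-rayed HEK293T cells with a control shRNA or an shRNA against ALKBH5. Per the submitters' processing notes and the methods, reads were demultiplexed with bcl2fastq 2.0, trimmed with fastp 0.23.2, aligned to hg38 with HISAT2 and sorted with SAMtools 1.9, and StringTie and MACS2 are named for quantification and peaks. The rules for strand and for reads shared between transcripts, and the annotation release, are not given in the sources used here.

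Counts were summed per gene symbol and scaled to CPM by library totals (2237819, 3944402, 1311390 and 3148119 counts). log2 ratios carried a pseudocount of 0.5 CPM, for genes that averaged 50 counts or more per library, and at least 1.5-fold was the threshold. Exact 95% Clopper-Pearson intervals (conditional odds ratio intervals for the change of enrichment) cover counting error only, without pseudocount. The largest and smallest 5 members per measure were named by rule. Members and lists were chosen with earlier results of these data known. Alternatives were edgeR 4.0.16 TMM factors, DESeq2 1.42.0 size factors, other pseudocounts, filters and thresholds, and the most counted transcript, and, chosen after the data were seen, only genes with 1 CCDS coding transcript. The steps were tested on simulated data. Positions and sequences come from hg38 and Gencode v44, which holds 98.1% of the listed transcripts. Analyses used Python 3.11.15, numpy 2.4.6, scipy 1.17.1, pandas 2.3.3, matplotlib 3.10.9 and R 4.3.3.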

Additional observations from a re-analysis of the deposited data

How the results depend on the processing

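Over the alternatives the members' median enrichment ranged from -0.46 to -0.43 in shCTL and from -0.62 to -0.45 in shA5. The median ratio of shA5 to shCTL ranged from 0.09 (only genes with 1 CCDS coding transcript, and also no filter and the most counted transcript) to 0.23 (average of 200 counts or more) in the inputs. It ranged from 0.07 to 0.14 in the m6A-IPs, and that of enrichment from -0.10 to -0.07. No median turned its sign. Of the single genes, the most counted transcript alone turned DNMT1 enrichment in shCTL from -0.41 to 0.41, the RFC3 input ratio from -0.05 to 0.08, and the changes of enrichment of RFC3 from 0.18 to -0.0046 and of RFC4 from 0.01 to -0.01. It also moved the change of enrichment of DNMT1 from -0.21 to -0.94, of GMNN from -0.50 to -0.96 and of LIG1 from 0.42 to 0.83, the LIG1 input ratio from -0.41 to -0.79, and enrichment in shCTL of LIG1 from 0.51 to 0.89 and of RPA2 from -1.09 to -1.495. The DNMT1 input ratio moved from 0.63 to 1.01 and RRM2 enrichment in shCTL from 0.36 to 0.59. Counts of members past 1.5-fold moved with the number of members used. With an average of 10 counts or more (52 members), 8 were enriched in shCTL, 6 had higher and 4 lower input in shA5, and 5 had higher and 2 lower enrichment in shA5. At 200 counts (17 members) these were 3 in shCTL, 3 in shA5 and 0 for higher input, lower input and higher enrichment. With no filter (58 members) they were 10 in shCTL, 11 in shA5, 7 higher and 6 lower inputs, and 6 higher and 5 lower enrichments. With only genes with 1 CCDS coding transcript (15 members) they were 2 in shCTL, 2 in shA5 and 0 for higher input, lower input and higher enrichment. At 2-fold, 3 were enriched in shCTL, 0 had higher input, 1 lower input and 0 higher enrichment. When the larger value had to exceed the smaller by 25%, the counts were 9 in shCTL, 7 higher and 6 lower inputs, and 7 higher and 5 lower enrichments. The most counted transcript per gene (35 members) gave 7 enriched in shCTL, 1 higher input, and 4 higher and 1 lower enrichments, and a pseudocount of 2 CPM gave 1 lower input. Fewer or more genes used accounts for part of these moves by construction. The share of all genes past the threshold moved too. For enrichment in shCTL it was 18.9% at 10 counts, 29.1% at 200, 21.6% with no filter, 25.2% with 1 CCDS coding transcript, 10.1% at 2-fold, 32.4% at 25% and 24.3% for the most counted transcript. For higher input these shares were 9.32%, 1.08%, 15.3%, 2.56%, 0.47%, 13.9% and 3.44%, and for lower input 12.5%, 3.33%, 19.9%, 6.13%, 1.15%, 18.9% and 7.04%. For higher enrichment in shA5 they were 12.6%, 1.65%, 22.7%, 3.9%, 0.846%, 15.6% and 5.58%, and for lower 13%, 1.08%, 21.4%, 4.23%, 0.771%, 15% and 4.9%. For enrichment in shA5 itself they were 31% at 200 counts, 24.5% with no filter and 26.9% with 1 CCDS coding transcript. With a pseudocount of 2 CPM 5.85% had lower input.

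No paired analysis was possible because there is 1 library for every group, and for the same reason no replicate was left out. The shA5 input, with 1311390 counts, limits the precision. Exons of 23 members overlap those of another gene, 18 of them with one on the opposite strand, and 13 members have named pseudogenes. The part of such reads, of transcript counting and of the spread between cultures was not tested.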
